A study of Sus scrofa with 20 samples.

Results

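CXCL13, the chemokine that draws B cells into lymphoid follicles, was measured by 2 probe sets of the GeneChip Porcine Genome Array, which were chosen because the platform annotation names CXCL13 as their only gene. The array held 24123 probe sets, of which 23999 were tested after 124 controls were left out. Of the tested probe sets, 10069 had 1 gene symbol, 198 had several and 13732 had none. Total RNA of the ileal mucosa of 20 crossbred (Landrace × Large white × Duroc) piglets was hybridized, 1 piglet per array. In suckling piglets, which were kept from the sow's diet, 3 arrays were made at 14 days of age (S14D), 4 at 21 days (S21D), 4 at 28 days (S28D) and 3 at 35 days (S35D). Piglets weaned at 21 days onto a commercial diet gave 3 arrays at 28 days (21W28D), 7 days after weaning, and 3 arrays at 35 days (21W35D), 14 days after weaning. The weaned groups thus differed from the suckling groups in diet and in the presence of the sow at once. The piglets came from fewer litters than there were arrays, so some were littermates, but the labels did not give the litter of each array. The p-values thus measured the spread between piglets, and no test took litter into account.

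The values were gcRMA values, array intensities corrected for background and normalized by the authors, on the log2 scale, so that 1 unit is a 2-fold difference. They ran between 2.08 and 16.41, and 41.5% of them lay within 1 unit of the lowest value. The labelled tissue was checked with 12 epithelial genes, whose levels differed. EPCAM, an adhesion molecule of epithelial cells, lay between 14.44 and 15.21. FABP6, the bile acid binding protein of the ileal enterocyte, lay between 13.27 and 16.07. Lower in the same list, KRT18 lay between 7.95 and 10.52, and APOA4 between 4.77 and 12.28. Doubts about some arrays precede the results. Replicate 2 of 21W35D stood apart, with a correlation of 0.970 to the mean of its own group over all probe sets, the lowest of the 20 arrays. The group mean that lay nearer to the arrays labelled S35D was that of 21W35D, not S28D, in 3 of 3 (by correlation over all probe sets), and for those labelled 21W28D it was that of S28D, not 21W35D, in 2 of 3. In both cases the nearer group was of the same labelled age, so correct labels could give this too. The correlations thus cannot decide whether labels were exchanged. The labels S35D and 21W28D were used as given, as "arrays labelled S35D" and "arrays labelled 21W28D". CXCL13 was also compared with both labels exchanged and without replicate 2 of 21W35D.

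CXCL13 is made by follicular dendritic cells and other stromal cells of lymphoid follicles, and it binds the receptor CXCR5 on B cells and follicular helper T cells. Lymphotoxin, made by B cells and lymphoid tissue inducer cells, switches CXCL13 on in the stroma, and CXCL13 in turn raises lymphotoxin on B cells, a loop known from mice by which follicles form and are maintained. The ileum of the young pig holds a long, continuous Peyer's patch whose follicles consist mainly of B cells. In bulk tissue, fewer cells of a type and less RNA per cell cannot be told apart. In the pig annotation, the protein-coding genes on either side of CXCL13 are CCNG2 and CNOT6L, and 13 protein-coding genes lie between it and CXCL9, the inflammatory chemokine of the same family. The study also amplified CXCL13 by PCR, and the primers, of 19 and 20 bases, are shown because they mark the transcript that the study followed outside the array (5′ to 3′, in lower case):
CXCL13 forward primer: aagcctccggaagagattg
CXCL13 reverse primer: cttgtcaggctgaaactcca

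The brighter CXCL13 probe set lay far above the median probe set of the array, which was between 5.07 and 5.35, on all arrays but 1. The brighter of its probe sets averaged 12.56 ± 2.59 over the 20 arrays (SD) and the dimmer one 9.83 ± 2.62, and their correlation over the arrays was 0.94. The brighter probe set, used below unless the other is named, measured 11.49, 12.62 and 9.45 in S14D. In S21D it measured 14.18, 13.97, 14.39 and 13.78, so that the lowest S21D piglet lay above the highest S14D piglet. In S28D it measured 13.38, 14.35, 14.30 and 13.63, within the range spanned by S21D but for the first piglet and the last. The arrays labelled S35D measured 10.08, 12.53 and 12.38, all below the lowest S28D piglet. In weaned piglets, the arrays labelled 21W28D measured 12.04, 14.09 and 13.79, with the first piglet about as low as those labelled S35D and the other piglets among S28D. The 21W35D arrays measured 13.84, 3.28 and 13.65. Replicate 2 was thus 6.17 units below the next lowest array of the series and close to the 2.08 that was the lowest value of any probe set, while the other piglets of its group were as high as S21D and S28D.

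**Figure D1:**
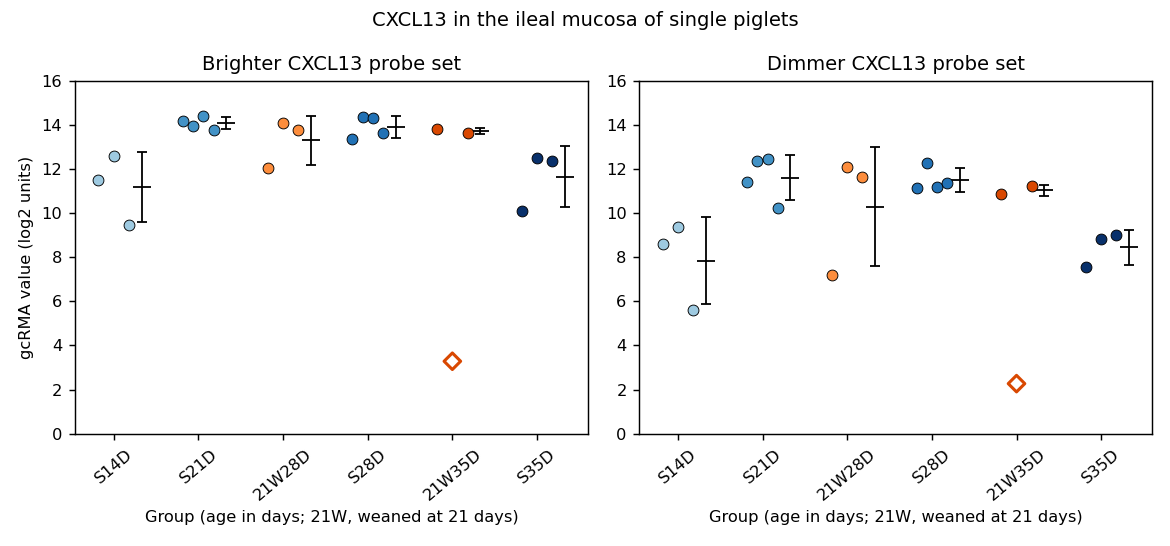
CXCL13 in each piglet (gcRMA value, log2 units, vertical axis) by group (horizontal axis), with the brighter probe set on the left and the dimmer one on the right. Points are arrays, the bar beside them is the group mean ± SD, and the open diamond is replicate 2 of 21W35D, which is left out of its group's bar; it measured 3.28 and 2.27, against 9.45 and 5.60 in the next lowest piglet.

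The dimmer probe set gave the same picture at a lower level. It measured 8.58, 9.38 and 5.60 in S14D, 11.40, 12.37, 12.46 and 10.25 in S21D, 11.14, 12.29, 11.20 and 11.36 in S28D, and 7.56, 8.82 and 9.0 in the arrays labelled S35D. In the arrays labelled 21W28D it measured 7.19, 12.10 and 11.62, and in 21W35D 10.87, 2.27 and 11.23. The S21D and S28D piglets again lay above every S14D piglet and every piglet labelled S35D, and the first 21W28D piglet was again the low one of its group.

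Ordered by mean, CXCL13 was highest in S21D at 14.08 ± 0.26 (n = 4), followed by S28D at 13.92 ± 0.49 (n = 4), the arrays labelled 21W28D at 13.31 ± 1.10 (n = 3), those labelled S35D at 11.66 ± 1.37 (n = 3), S14D at 11.19 ± 1.60 (n = 3) and 21W35D at 10.26 ± 6.04 (n = 3; all SD). Replicate 2 alone set the place of 21W35D: without it, the mean was 13.75 ± 0.14 (n = 2), between S28D and 21W28D, and the median of 21W35D was 13.65. With all 20 arrays no neighboring groups in this order could be told apart beyond the spread of the arrays, and none of the 15 pairs of groups passed the test (adjusted p under 0.05) with either probe set. That test was limma, a linear model over all 20 arrays with Benjamini-Hochberg adjustment over the 23999 probe sets. Among single arrays, 12 were above a level of 13, which was set after the values were seen, and 8 were below it, the nearest measuring 13.38 and 12.62. All S21D and S28D piglets and 2 of 3 in each weaned group were above it, and no S14D or S35D piglet was.

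The step from 14 to 21 days of suckling was the first comparison of ages. CXCL13 averaged 14.08 in S21D and 11.19 in S14D, a 7.44-fold difference (2.89 log2 units, SE 1.86, 95% interval -1.08 to 6.87). The groups did not overlap, as was so with S21D higher for 14.1% of all tested probe sets, and the exact two-sided permutation test gave p = 0.057, the smallest that 3 against 4 arrays allow. In limma over all 20 arrays the difference did not pass (adjusted p = 0.354; dimmer probe set 3.77, SE 1.79, adjusted p = 0.185), while 14.9% of all probe sets did, 7.27% of all being higher in S21D. The standard error came largely from replicate 2 of 21W35D, an array outside this comparison that shares the estimate of the spread. Without that array the difference was the same 2.89 with an SE of 0.73 (95% interval 1.32 to 4.47), and it passed with both probe sets (adjusted p = 0.015 and 0.029), as did 20% of all probe sets, with 10.4% of all higher in S21D. The study chose CXCL13 on these arrays for its change between these ages, so neither test is independent evidence of the direction.

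Between 21 and 28 days of suckling no difference was detected. CXCL13 averaged 13.92 in S28D and 14.08 in S21D (difference -0.17, SE 1.72, 95% interval -3.85 to 3.52, adjusted p = 1), and without replicate 2 of 21W35D the interval narrowed to -1.62 to 1.29. Only 0.00417% of all probe sets passed in this comparison. S28D stood above S14D by 2.73 log2 units (SE 1.86, adjusted p = 0.365), a comparison in which 22.2% of all probe sets passed. Without replicate 2 of 21W35D the difference passed (adjusted p = 0.014), as did 26.1% of all probe sets.

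In the arrays labelled S35D CXCL13 averaged 11.66, against 13.92 in S28D, a 4.77-fold difference (-2.25 log2 units, SE 1.86, 95% interval -6.23 to 1.72, adjusted p = 0.548). The groups did not overlap, which was so with S35D lower for 13% of all probe sets, and the exact permutation p was again 0.057, the smallest possible. In the same comparison 6.54% of all probe sets passed, 3.53% of all being higher and 3.01% lower in the arrays labelled S35D. Without replicate 2 of 21W35D the interval was -3.83 to -0.68 but the difference did not pass after adjustment (adjusted p = 0.062; dimmer probe set -3.04, SE 1.10, adjusted p = 0.090), while 11.8% of all probe sets passed, 6.2% of all being lower. With both doubtful labels exchanged, the difference between S35D and S28D was -0.61 (adjusted p = 1). The low level at 35 days thus rests on these labels, on which the correlations above cannot decide.

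Taking all 4 ages of suckling at once, CXCL13 did not pass (limma F test, F = 1.30, adjusted p = 0.560; dimmer probe set F = 2.43, adjusted p = 0.261), whereas 20.6% of all probe sets did. Without replicate 2 of 21W35D it passed with both probe sets (F = 8.41, adjusted p = 0.015; F = 6.43, adjusted p = 0.029), as did 27.1% of all probe sets.

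Weaning was assessed at 7 and at 14 days. CXCL13 averaged 13.31 in the arrays labelled 21W28D and 13.92 in S28D, and the difference of -0.61 log2 units (SE 1.86, 95% interval -4.59 to 3.37) did not pass (adjusted p = 1; exact permutation p = 0.457). No probe set of the 23999 passed in this comparison (0%) by limma, and 451 had an unadjusted p under 0.05. The difference came from the first piglet labelled 21W28D, which measured 12.04; without it the difference was 0.022. Without replicate 2 of 21W35D the interval, -2.19 to 0.97, still held 0. With both doubtful labels exchanged, the weaned group at 28 days was lower by 2.25 (adjusted p = 0.548), so the size of any fall at 7 days after weaning depends on which labels hold. Against S21D, the age at which the piglets were weaned, the arrays labelled 21W28D averaged 13.31 and S21D 14.08 (difference -0.78, SE 1.86, adjusted p = 1), with 0% of all probe sets passing by limma and 606 at an unadjusted p under 0.05. The study named CXCL13 for a change between 28-day-old weaned and suckling piglets too, so this comparison was not an independent one.

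At 35 days, CXCL13 averaged 10.26 in 21W35D and 11.66 in the arrays labelled S35D (difference -1.40, SE 1.99, 95% interval -5.65 to 2.85, adjusted p = 1). Replicate 2 decided the sign: without it the 21W35D piglets (n = 2) were higher by 2.09 (SE 0.87, 95% interval 0.20 to 3.97, adjusted p = 0.407), with values of 13.84 and 13.65. Of all probe sets, 0.0458% passed with it and 0.254% without it. From 7 to 14 days after weaning the same array again set the direction. 21W35D averaged 10.26 and the arrays labelled 21W28D 13.31 (difference -3.05, SE 1.99, adjusted p = 0.628, with 0.0792% of all probe sets passing), but without replicate 2 the difference was 0.44 (SE 0.87, adjusted p = 1). With both doubtful labels exchanged, this 0.44 (95% interval -1.44 to 2.32) would be the difference between weaned and suckling piglets at 35 days. The higher level of 2.09 thus rests on the labels as given.

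Whether the effect of weaning differed between the ages was tested by the interaction. The difference between weaned and suckling piglets at 35 days minus that at 28 days was -0.79 (SE 2.72, 95% interval -6.61 to 5.03, adjusted p = 1) and 2.70 without replicate 2 of 21W35D (SE 1.14, adjusted p = 0.708). No probe set passed (0%) by limma with all arrays, and 610 had an unadjusted p under 0.05. Over the 5 groups from 21 days on, weaned and suckling, the F test did not pass for CXCL13 either (F = 1.5, adjusted p = 0.682), and 2.22% of all probe sets passed it.

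**Figure D2:**
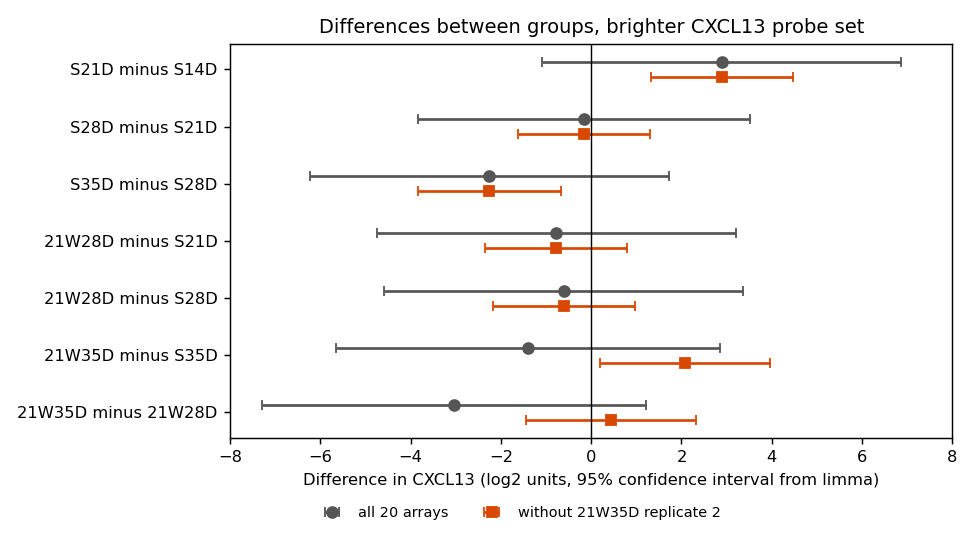
Differences in the brighter CXCL13 probe set between pairs of groups (log2 units, first group minus second, horizontal axis) with 95% confidence intervals from limma, over all 20 arrays (grey circles) and without replicate 2 of 21W35D (orange squares). Without that array the intervals shorten, S21D minus S14D stays at 2.89, and the 21W35D differences move to 2.09 and 0.44.

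The genes around CXCL13 were described by role. Each list is given by its counts and its median, beside the median of all probe sets, which was 0 in each comparison. Between S21D and S14D, 7.27% of all probe sets were called higher in S21D, and 14.1% were higher there without overlap. These shares stand beside each count of genes that rose, and each higher gene without overlap, given below for that comparison with all arrays. For counts without replicate 2 of 21W35D, the share called higher was 10.4%. With 1 array left out, calls over all probe sets in either direction ran between 1060 and 5068 (3575 with all arrays). The list counts with an array left out thus stand beside totals that moved too. The receptor CXCR5, the lymphotoxin receptor LTBR and the B cell and follicle genes CR2, MS4A1 and BCL6 were unnamed in the annotation used, so no value is given for them. Of 12 genes of the lymphoid chemokine axis, the chemokine and receptor pairs that place lymphocytes in follicles and T cell zones, 7 were measured. CCL21, a chemokine of T cell zones, and its receptor CCR7 stayed at or below 3.18 on every array, close to the lowest value of 2.08. CCL19, the other ligand of CCR7, measured 8.33, 7.17, 9.52 and 6.6 in S21D and 9.55, 4.52 and 3.28 in S14D, so that the groups overlapped (difference 2.12, adjusted p = 0.521). CXCR4, a receptor for CXCL12 that follows germinal centre B cells through the dark zone, measured 12.92, 12.56, 13.21 and 12.90 in S21D and 12.49, 11.03 and 9.19 in S14D, with no overlap (difference 1.99, adjusted p = 0.197). Its ligand CXCL12 lay between 9.13 and 11.62 on all arrays and averaged 10.53 in S21D and 10.97 in S14D (difference -0.45, adjusted p = 0.750). Between S21D and S14D none of the 7 passed, with a median difference of 0.23.

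Of the ligands and receptors that act upstream of CXCL13, 9 of 21 listed were measured. LTB, the membrane anchor of lymphotoxin, measured 11.88, 11.47, 12.23 and 11.80 in S21D and 11.37, 9.85 and 6.30 in S14D (difference 2.67, adjusted p = 0.217), and its partner LTA did not exceed 3.57 on any array. The arrays labelled S35D measured 7.83, 10.94 and 10.63 for LTB, and S28D 10.98, 12.35, 12.10 and 12.47, again with the first S35D piglet the lowest, as for CXCL13. In 21W35D LTB measured 12.05, 5.73 and 11.45, so that replicate 2 was the lowest array of the series here also. TNFRSF1B, a receptor for TNF, rose in S21D over S14D (8.76 and 7.45, difference 1.31, adjusted p = 0.047), the only one of the 9 past the test, and TNFRSF1A, the other receptor for TNF, averaged 9.85 in the arrays labelled S35D, above the 8.78 of S28D (difference 1.06, adjusted p = 0.039). The list's median difference was 0.37 between S21D and S14D.

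Of 20 listed genes of the follicular stroma and of adhesion, 10 were measured, and in S21D against S14D their median difference was 1.36. ITGB2, the common chain of leukocyte integrins, passed the test (9.53 in S21D and 7.27 in S14D, difference 2.25, adjusted p = 0.021), 1 of 10. CR1, annotated as a complement receptor, averaged 13.90 in S21D and 11.16 in S14D (difference 2.74, adjusted p = 0.474), and CLU, the secreted chaperone clusterin that follicular dendritic cells express, averaged 11.91 in S21D and 8.25 in S14D (difference 3.66, adjusted p = 0.237). Without replicate 2 of 21W35D, 4 of 10 passed, with VCAM1, ICAM1 and MADCAM1, adhesion molecules that hold or admit lymphocytes, joining ITGB2 (adjusted p = 0.030, 0.0024, 0.0068 and 0.0036). Without replicate 2 or 3 of S14D, or replicate 1 or 3 of S21D, none of the 10 passed, while 4 passed without replicate 1 of S14D and 2 without replicate 1 of 21W35D. In the arrays labelled S35D against S28D the median difference was -1.24, and MFGE8, a protein by which follicular dendritic cells license the uptake of dying cells, fell (7.56 and 8.92, difference -1.36, adjusted p = 0.047), also 1 of 10.

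VCAM1, ICAM1, VAV1 and SLA-DOA were followed by the study with CXCL13 as genes of leukocyte chemotaxis, a list chosen on these same arrays and so no independent evidence of direction. VCAM1 measured 13.64, 13.66, 13.98 and 13.36 in S21D and 13.19, 12.26 and 11.27 in S14D, with no overlap (difference 1.42, adjusted p = 0.103). VAV1, an exchange factor that relays antigen receptor signals, measured 10.88, 10.84, 11.20 and 11.01 in S21D and 10.01, 8.97 and 7.36 in S14D, and it rose (difference 2.20, adjusted p = 0.040). SLA-DOA, a chain of the MHC class II modulator of B cells, measured 4.12, 4.19, 6.26 and 5.08 in S21D and 3.37, 2.08 and 2.08, near the lowest value, in S14D, and rose too (difference 2.40, adjusted p = 0.048). Thus 2 of 4 passed with all arrays, and all 4 without replicate 2 of 21W35D. Each of several other single arrays, when left out, took the count to 0 or 1, among them every S21D piglet and replicates 2 and 3 of S14D, and it was 0 without the arrays labelled S35D and 21W28D. Between 21W28D and S28D the 4 genes differed by -0.55 (ICAM1) to 0.16 (SLA-DOA), and none passed.

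All 7 B cell genes measured, of 22 listed, had higher means in S21D than in S14D, with a median difference of 2.63, and 4 of them rose: FCGR2B, the inhibitory Fc receptor (7.94 in S21D and 3.52 in S14D, difference 4.42, adjusted p = 0.023), SPIB, a transcription factor of B cells and M cells (11.95 and 9.57, difference 2.38, adjusted p = 0.033), BLNK, the adaptor of the B cell receptor (13.84 and 12.70, difference 1.14, adjusted p = 0.021), and the kinase LYN (9.37 and 8.68, difference 0.69, adjusted p = 0.020). CD79B, a signalling chain of the B cell receptor, measured 11.79, 11.30, 12.07 and 11.87 in S21D and 11.26, 9.34 and 3.45 in S14D, with no overlap (difference 3.74, adjusted p = 0.215). Without replicate 2 of 21W35D, 5 of 7 passed, CD40 being added (difference 2.63, adjusted p = 0.0097), while none did without replicate 2 or 3 of S14D or replicate 3 of S21D, and 2 did without replicate 1 of S21D. The part of B cell content in the difference in CXCL13 was not tested.

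Genes of other cells were counted in the same comparison, in which 7.27% of all probe sets were called higher in S21D and 7.63% lower. A list with 1 call of 9, 10 or 14 genes is near these shares. Of 11 T cell and follicular helper genes measured, 5 rose (median difference 1.05), led by CD247, a chain of the T cell receptor complex (8.87 and 6.18, difference 2.68, adjusted p = 0.049), LCK, its proximal kinase (9.55 and 7.20, difference 2.35, adjusted p = 0.036), and CD8A, a co-receptor (7.80 and 5.69, difference 2.11, adjusted p = 0.019). The T cell count fell to 0 without replicate 2 or 3 of S14D or replicate 3 of S21D, to 2 without replicate 2 of S21D, and to 3 without its replicate 1 or 4. Of 3 germinal centre genes measured of 16 listed, EZH2, a histone methyltransferase of dividing cells, rose (10.34 and 7.99, difference 2.35, adjusted p = 0.022). Of 5 plasma cell genes measured, JCHAIN, the joining chain of secreted IgA, rose (14.34 and 12.35, difference 2.00, adjusted p = 0.0020), and 3 of 8 macrophage genes rose, AIF1, C1QA and C1QC. Of 17 genes of the type 1 interferon response, 7 rose. Of 12 epithelial genes, only FABP6 passed (15.82 and 13.84, difference 1.98), the median being -0.30, and of 9 smooth muscle genes only ACTA2 passed, lower in S21D (12.18 and 13.17, difference -0.99, adjusted p = 0.036). Of 9 endothelial genes, 4 of which were under 4 on every array, 2 fell. The endothelial score was -0.51 to 0.17 in S21D and 0.63 to 0.77 in S14D. Of 4 erythrocyte genes none passed, and the erythrocyte score was -0.25 to 0.36 in S21D and 3.54, 0.91 and -0.49 in S14D. Of 7 reference genes 2 rose, and their score was 0.07 to 0.17 in S21D and -0.40 to -0.05 in S14D. The part of these markers in the difference in CXCL13 was not tested.

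Of 14 other chemokines measured, CXCL14, which is expressed in epithelium and stroma, alone rose in S21D over S14D (13.59 and 12.07, difference 1.52, adjusted p = 0.048). CXCL9, which recruits T cells under interferon gamma and lies in the same chemokine neighborhood of the genome as CXCL13, measured 9.11, 8.52, 9.18 and 9.70 in S21D and 6.30, 7.54 and 6.0 in S14D, with no overlap (difference 2.51, adjusted p = 0.086). CXCL9 reached its highest value, 13.70, in S28D replicate 3, and measured 10.13 in 21W35D replicate 2, where CXCL13 was at its lowest. CCR9, the gut homing receptor of T cells and plasma cells, rose (difference 2.12, adjusted p = 0.0016). Of the genes flanking CXCL13, CCNG2, a cyclin, lay between 11.16 and 12.81. It measured 12.38, 12.22, 12.48 and 12.46 in S21D and 12.00, 11.96 and 11.76 in S14D, with no overlap (difference 0.48, adjusted p = 0.264), and its lowest arrays, replicate 2 of 21W35D, replicate 1 labelled S35D and replicate 3 of S14D, were those lowest in CXCL13. CNOT6L, a deadenylase, lay between 10.22 and 11.53, and ACTB, a cytoskeletal gene used to scale PCR, lay between 13.98 and 14.54.

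In the arrays labelled S35D, where CXCL13 was below S28D, none of the 7 B cell genes passed, all 7 had lower means, and the median difference was -2.05. BTK, a kinase of the B cell receptor, averaged 8.17 and 11.03 (difference -2.85, adjusted p = 0.187), and LYN 8.75 and 9.37 (difference -0.62, adjusted p = 0.0505). Without replicate 2 of 21W35D, 4 of 7 fell, BLNK, CD40, FCGR2B and LYN, as did 6.2% of all probe sets. With all arrays, 3.53% of all probe sets were called higher in this comparison and 3.01% lower. Of the interferon genes, 12 of 17 were higher (median 2.05). Among them were RSAD2, an antiviral enzyme (14.63 and 11.94, difference 2.68, adjusted p = 0.014), and OAS1, a sensor of viral RNA (13.97 and 11.51, difference 2.46, adjusted p = 0.013). Among other chemokines CCL28, an epithelial chemokine for IgA plasma cells (8.28 and 4.88, difference 3.41, adjusted p = 0.048), and CXCL16 (10.94 and 9.05, difference 1.89, adjusted p = 0.026) were higher. Of 12 epithelial genes 3 were higher, CDH1, CDH17 and KRT18, with a list median of 0.82, and the smooth muscle median was 1.14 with none of 9 past the test. The smooth muscle score, the mean of the list's genes after each was centred over all arrays, was 2.38 in replicate 3 labelled S35D and at most 0.82 elsewhere. The part of these tissue markers in the lower CXCL13 was not tested. All these calls rest on the doubtful labels: with both exchanged, no gene of these lists passed between S35D and S28D, the interferon median was -1.11 and the B cell median -0.22.

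Between the arrays labelled 21W28D and S28D no gene of any list passed, with median differences of -0.22 for B cell genes, -0.25 for follicular stroma, 0.68 for T cell genes and -1.11 for interferon genes. Between 21W35D and the arrays labelled S35D, CD3G, a chain of the T cell receptor complex, was the only list gene past the test (9.20 and 7.98, difference 1.21, adjusted p = 0.036). The B cell median there was 0.24 with all arrays and 1.56 without replicate 2 of 21W35D.

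The genes whose pattern was most like CXCL13 were taken by Pearson correlation over the 20 arrays, among 1770 genes with a mean of at least 5 and an SD of at least 0.5, whose median correlation with CXCL13 was -0.19. The points share piglets, groups and normalization, and the correlations are descriptions only. CR1 came first (r = 0.98), then SWAP70, which acts in B cell activation and class switching in mice (0.95), ANKRD29 (0.94), LRP8, a lipoprotein and reelin receptor (0.94), CLU (0.92), C3H2orf40 (0.92), CXCR4 (0.91), SLC15A2, a peptide transporter (0.91), EAF2, an elongation factor of germinal centre B cells (0.91), and LMO2, a transcription cofactor used as a germinal centre marker (0.90). CR1 measured 12.94, 12.62 and 7.92 in S14D, 13.71, 14.06, 14.28 and 13.53 in S21D, and 13.71, 2.42 and 13.62 in 21W35D. Like CXCL13 it was lowest in replicate 2 of 21W35D and next lowest in replicate 3 of S14D.

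The ranking changed without replicate 2 of 21W35D. Then 50 genes had a correlation of at least 0.9, against 12 with all arrays. Of the 10 genes named above, LMO2 (0.87), C3H2orf40 (0.87), LRP8 (0.88) and CXCR4 (0.89) fell below 0.9, as did ANKRD29. CR1 had a correlation of 0.94 and ANKRD29 0.78, the lowest of the 10, and CR1 and EAF2 alone of the 10 were again among the 10 most alike. BCAT1, an enzyme of branched-chain amino acid metabolism, then came first (0.96), and CD55, a complement regulator (0.93), CD83, an activation marker of B cells and dendritic cells (0.93), and CXCL14 (0.93) were among the 10. With all arrays kept, replicate 2 of 21W35D among them, CR1 was also first after group means were removed (0.98). The 5 genes most opposed to CXCL13 were GOT1, an aspartate aminotransferase (-0.91; -0.71 without replicate 2 of 21W35D), DGAT1, which makes triglyceride (-0.90; -0.86), SEC14L2, a lipid transfer protein (-0.89; -0.63), P4HA2, a collagen prolyl hydroxylase (-0.89; -0.72), and DNAJB9, a chaperone of the endoplasmic reticulum (-0.88; -0.79).

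**Figure D3:**
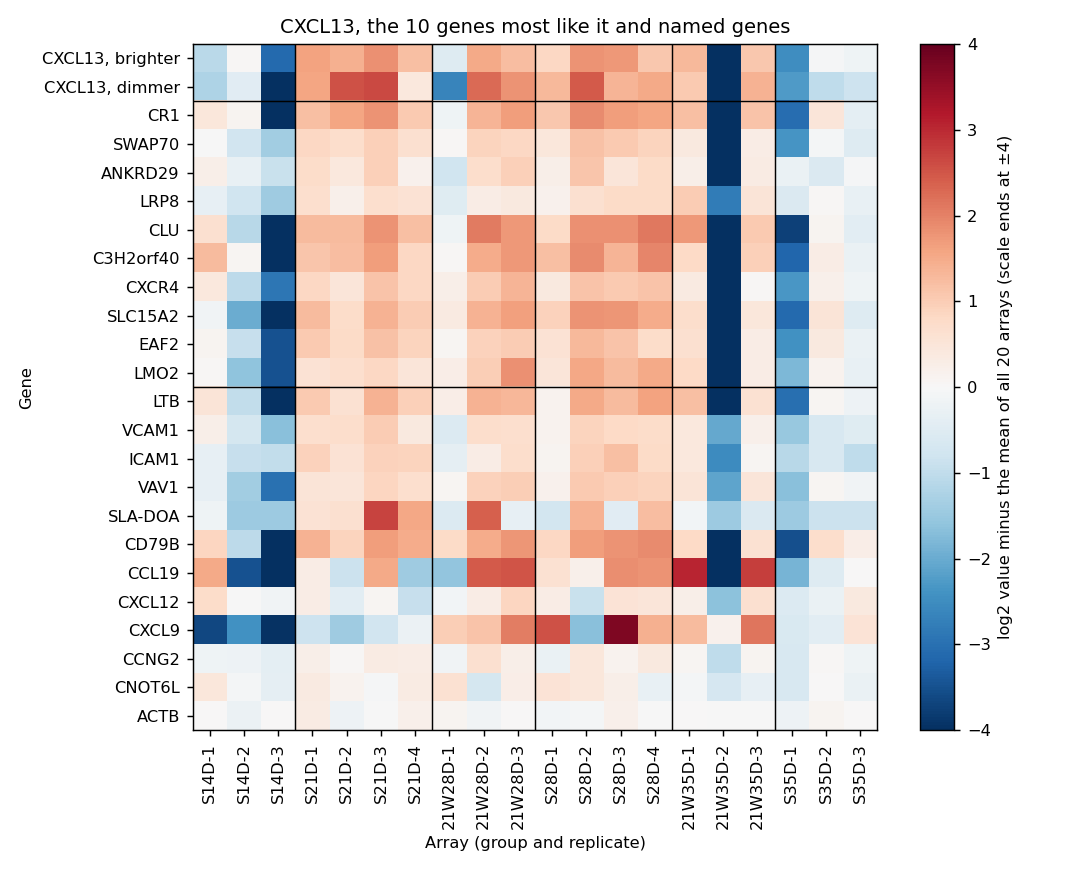
Log2 values minus the mean of all 20 arrays (color, scale ends at ±4) for the CXCL13 probe sets, the 10 genes most like the brighter one, and named genes (rows), by array (columns, grouped). Replicate 2 of 21W35D, replicate 3 of S14D and replicate 1 labelled S35D are low in CXCL13, CR1, CLU, LTB and CD79B, with CCNG2 low on the same arrays over a smaller range (11.16 to 12.81) and ACTB between 13.98 and 14.54.

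CXCL13 and the B cell genes were low on the same arrays but not to the same degree. The B cell score, the mean of the 7 B cell genes after each was centred over all arrays, was -3.20 in replicate 2 of 21W35D, -3.43 in replicate 3 of S14D and -2.27 in replicate 1 labelled S35D, the lowest values of the series. Centred in the same way, CXCL13 was -9.28, -3.11 and -2.48 on those arrays. CXCL13 minus the B cell score was therefore -6.08 in replicate 2 of 21W35D, against -0.86 to 1.43 on the other 19 arrays. The score is a mean of 7 genes, whose range was not matched to that of CXCL13. The only other array with as low a B cell score, replicate 3 of S14D, had a higher CXCL13 than replicate 2 of 21W35D. CD79B measured 2.93 there and 3.45 in replicate 3 of S14D, both near the lowest value, where a further fall could not be seen, whereas CXCL13 was 3.28 and 9.45. On the same array VCAM1 was 10.92, ACTB 14.22, the T cell score 0.02 and the epithelial score 0.73, the last second only to replicate 1 labelled S35D at 0.76. Whether this piglet's sample lacked follicle tissue was not tested.

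**Figure D4:**
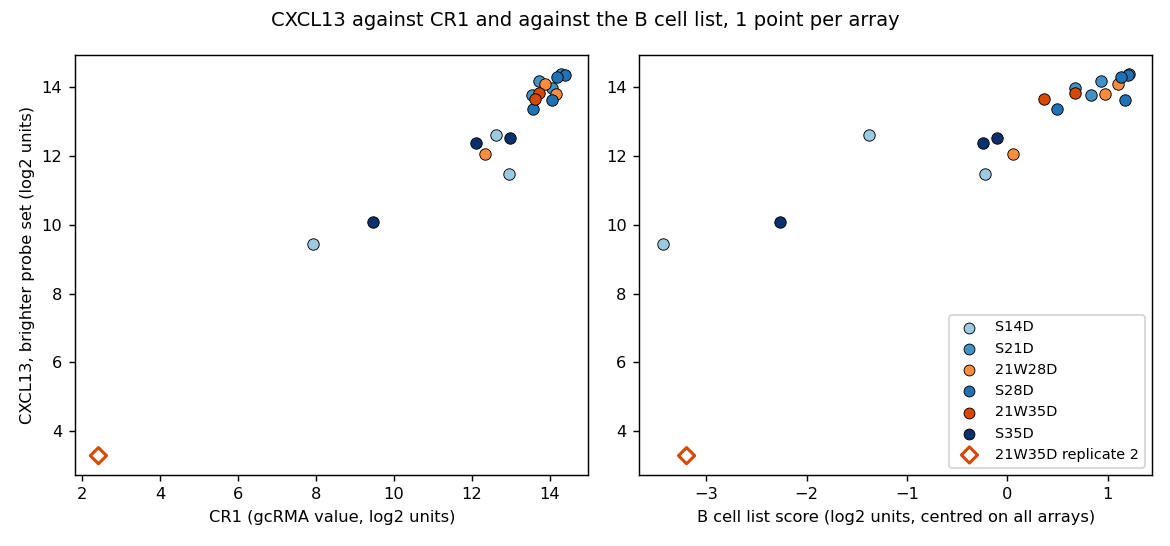
CXCL13 (brighter probe set, log2 units, vertical axis) against CR1 (log2 units, left) and against the B cell score (mean of 7 centred genes, log2 units, right), 1 point per array, colored by group. Replicate 2 of 21W35D (open diamond) has the lowest CXCL13 and CR1 of the series, while its B cell score of -3.20 is close to the -3.43 of an S14D array whose CXCL13 was 9.45.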

How the data were processed

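Ileal mucosa of 20 piglets was hybridized to GeneChip Porcine Genome Arrays, 1 array per piglet. The authors scanned the arrays (GCOS 1.2 and GCRMA are named in the submitters' processing notes), normalized them by gcRMA and deposited log2 values. gcRMA draws arrays to a common distribution, so a change shared by most genes cannot be seen, and its background step compresses dim probe sets to a lower bound, so falls near 2.08 are understated. The array has no counted depth, and the number of arrays limits the precision. No source used here gives the build behind the array design, and gene neighbors come from the Sscrofa11.1 annotation, in which the gene IDs of 9961 of the 10069 probe sets with 1 symbol were found.

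Groups were taken from the labels. From the deposited values, 1 mean per group was fitted by limma 3.58.1 in R 4.3.3 over 23999 probe sets (124 controls left out), with eBayes and Benjamini-Hochberg adjustment, and calls at an adjusted p under 0.05. The script was tested on simulated data. Single comparisons also had a two-sided exact permutation test. The methods' own test was Student's on each pair of groups, at a fold of at least 2, and it was run as an alternative on the same values. The other alternatives were a filter on dim probe sets (at least 4 in at least 3 arrays), only the compared groups in the fit, a trended and robust fit, median centring, a second quantile normalization, the replicate number as a block, the mean of both CXCL13 probe sets, exchanged labels of S35D and 21W28D, and each array left out.

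Genes other than CXCL13 were named by rule: the 10 most and 5 least correlated with it, the study's chemotaxis genes, set genes of the CXCL13 axis, and up to 4 genes per list with the largest difference among those past the test. Genes beyond that rule were named after their values were seen. They were EPCAM, FABP6, APOA4, CXCL9, the flanking genes, those most alike without one array, and list members given to complete a count. For a gene with several probe sets, the one with the highest mean was used. The members and lists were chosen with earlier results of these data known.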

Additional observations from a re-analysis of the deposited data

How the results depend on the processing

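The difference in CXCL13 between S21D and S14D kept its direction under every alternative. It was 2.89 log2 units and passed by the methods' t-test at its own threshold (2521 of the 18060 probe sets in that test did, 14%, and 2427 after Benjamini-Hochberg adjustment, which CXCL13 missed). It also passed in limma without replicate 2 of 21W35D. Over single arrays left out it ran between 2.03 and 3.61. The difference between S35D and S28D of -2.25 also passed the methods' t-test (1530 of 18128 probe sets did, 8.44%, and 10 after adjustment, which CXCL13 missed) and ran between -2.69 and -1.46 over arrays left out. CXCL13 passed that test in none of the 5 other pairs. In these, 66 (S28D minus S21D, 0.366% of those in the test), 130 (21W28D minus S21D, 0.724%), 36 (21W28D minus S28D, 0.199%), 80 (21W35D minus S35D, 0.447%) and 220 (21W35D minus 21W28D, 1.22%) probe sets did. Single arrays turned the sign of S28D minus S21D (-0.31 to 0.014), 21W28D minus S28D (-1.0 to 0.022), 21W35D minus S35D (-3.19 to 2.09), 21W35D minus 21W28D (-4.84 to 0.44) and the difference of the weaning effects (-2.58 to 2.70), the last also with the mean of both probe sets (0.032) and with the dimmer probe set, chosen after seeing the data (0.86). F for age ran between 0.82 and 8.41. Replicate numbers did not pair the arrays: of 46 same-numbered pairs 20 correlated above 0.1 and 19 below -0.1, and 6 of 20 arrays correlated best with their own number. With the replicate block the difference between S21D and S14D was 2.99 (adjusted p = 0.427), and no CXCL13 call changed, while the genes higher in S21D than in S14D numbered 1 B cell, 2 T cell, 0 follicular stroma and 0 chemotaxis genes.

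Counts of called probe sets moved more. Over arrays left out, S21D minus S14D ran between 1060 and 5068 (3575 with all arrays; 2266 with the replicate block), S35D minus S28D between 144 and 2827 (1570; 0 with exchanged labels), age between 2394 and 6504 (4949), the weaning groups between 195 and 744 (533; 135 with the replicate block, 1005 with dim probe sets left out). With labels exchanged 21W28D minus S28D had 1570 calls, where it otherwise had at most 16. 21W35D minus S35D ran between 7 and 61 (11) and 21W35D minus 21W28D between 15 and 54 (19), both with 0 when only the compared groups were fitted. With 3 or 4 arrays per group and many probe sets near the lowest value, small differences could not be seen.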
